A study of Mus musculus with 6 samples.

Results

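The genes of the lysosomal proton pump, the cathepsin proteases and the lysosome-associated membrane proteins were compared between the gastric corpus of mice lacking claudin 18 and that of wild-type mice. They were chosen by symbol: Atp6v and Atp6ap genes of the vacuolar ATPase (V-ATPase), Cts genes with 1 final letter, and Lamp genes with 1 digit. The rule matched 47 of the 38720 rows of the deposited table. Of these, 38 reached a normalized count of 10 in 3 or more of the 6 libraries and were tested among the 17432 genes that met this minimum. The 38 comprise 11 V1 subunits, 9 V0 subunits, 2 accessory subunits, 13 cathepsins and 3 LAMP genes.

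The study has 3 Cldn18 knockout libraries (CLDN18-/-) and 3 wild-type libraries (CLDN18+/+), both of the B6:129S5 strain. In each group the neck region of the corpus was isolated by laser capture microdissection (unfixed frozen sections were used) for RNA sequencing. The labels give an age of 7 weeks and the series design text 7 days, so the age is uncertain. Whether each library is a separate animal is not said, so the p-values measure a spread among samples that may be technical.

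The V-ATPase is a rotary pump that uses ATP to move protons into lysosomes, endosomes and secretory vesicles. Its V1 sector, on the cytosolic face, splits ATP, and its membrane-embedded V0 sector carries the protons. Cathepsins are proteases that mostly work in the acid interior this pump makes, and LAMP proteins line the inner face of the lysosomal membrane. In the stomach, parietal cells secrete acid through a different pump, the gastric H+/K+ ATPase encoded by Atp4a and Atp4b, and cathepsin E is an abundant product of the gastric epithelium.

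In all values below, libraries 1, 2 and 3 of a group follow that order. The knockout libraries held 44537204 to 52842813 reads on genes and the wild-type libraries 37673283 to 44766596. Cldn18 itself had 13035, 16798 and 15818 normalized counts in the knockout libraries, against 30498, 21210.1 and 23241 in the wild-type libraries (log2 difference -0.71 ± 0.20 SE, limma adjusted p = 0.0134), so it was reduced and still read. Genes of the mitochondrial genome took 1.25 to 1.56% of reads on genes in the knockout and 3.28 to 4.28% in wild-type. The summed level of 16 parietal cell markers was 71824 to 79058 normalized counts in the knockout, against 543796 to 709342 in wild-type. Most of this sum was Car2 and Ezr in the knockout, and Atp4a and Atp4b in wild-type. Mean counts in the knockout and in wild-type were 25061 and 42150 for Car2, 24799 and 32912 for Ezr, 2829 and 276926 for Atp4a, and 1473 and 153393 for Atp4b. The summed level of 7 chief cell markers was 39932 to 74344 normalized counts in the knockout, against 1815710.0 to 3012260.0 in wild-type. That of 6 surface and pit cell markers was 336863 to 583200.0 normalized counts in the knockout, against 882458 to 1496350.0 in wild-type, a sum carried largely by Gkn1 and Gkn2. Of these 6, Gkn1, Gkn2 and Psca were lower, Krt20 was higher (4986, 4699 and 11219 normalized counts in the knockout, against 132, 319 and 321 in wild-type), and 2 were not called. No marker of these gastric lists was at 0 in all libraries. The summed level of 15 macrophage and myeloid markers was 6811 to 12274 normalized counts in the knockout, against 3393 to 4791 in wild-type. In such bulk samples fewer cells of a type and less RNA per cell cannot be told apart. Wild-type libraries 2 and 3 stood apart from library 1 for some low genes, among them 4 members (Atp6v1b1, Atp6v1c2, Ctsw and Lamp3), whose library 2 value was 3 or more times, and whose library 3 value 1.5 or more times, that of library 1.

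Among the 38 members tested, 7 were higher, 16 lower and 15 not called in the knockout (limma, Benjamini-Hochberg adjusted p under 0.05 over all 17432 genes). Over all genes tested 44.7% were called, with 23.3% higher and 21.5% lower. The members' shares were 60.5% called, 18.4% higher and 42.1% lower. Their median log2 difference, knockout minus wild-type, was -0.38, against -0.02 for all genes tested. The lower calls lay mostly in the V-ATPase, with 11 of its 22 genes lower and 2 higher, and the higher calls in the cathepsins, with 5 of 13 higher and 3 lower. All log2 differences are of log2(normalized count + 1), which understates the change of low genes.

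**Figure D1:**
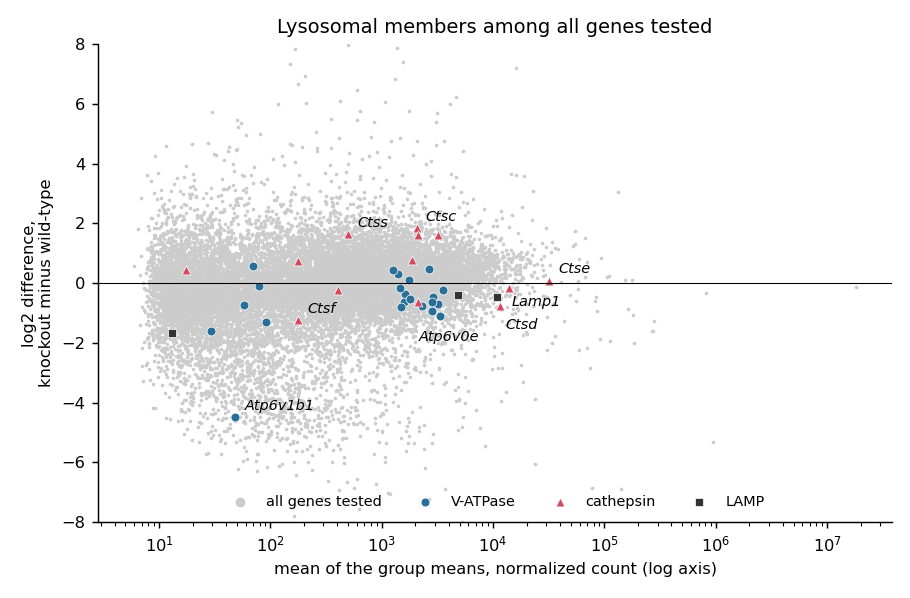
Log2 difference (knockout minus wild-type) of each tested gene against the mean of the 2 group means in normalized counts on a log axis, with all 17432 genes in grey and the members as blue circles (V-ATPase), red triangles (cathepsins) and black squares (LAMP); 5 genes beyond a log2 difference of 8 in size lie outside the plot. Most V-ATPase genes sit just below 0, 5 cathepsins from Ctsl to Ctsc sit above it, and Atp6v1b1 is the lowest member at -4.49.

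Transcription factors of the TFEB family regulate many lysosomal genes through a promoter element built around the E-box CACGTG, so the promoters of the members were searched for these letters. RefSeq promoters (GRCm38.p6, which is mm10, 250 bases before to 50 bases after the gene start) were found for 28 of the 38 members tested and for 11600 of all genes tested. CACGTG, which reads the same on both strands, occurred in 9 of the 28 members (32.1%), against 11.0% of the tested genes with a promoter and 8.09% of all 27025 genes with an entry. The longer TCACGTGA, which contains CACGTG and is likewise its own reverse complement, occurred in 5 of the 28 (17.9%), against 1.95% of the tested genes and 1.12% of all. A gene with more than 1 entry counted once if any entry held the letters. GTCACGTG, searched on both strands and overlapping the other 2, also occurred in 5 (17.9%), against 4.38% and 2.55%. A match is a description of the letters and not a binding site. By call, CACGTG was in 6 of 14 lower, 1 of 6 higher and 2 of 8 uncalled members (Atp6v0b and Atp6v0d1) with a promoter entry. Among the lower V-ATPase genes with an entry, only Atp6v1a and Atp6v0e held it.

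The matching stretches of the 6 lower members and of the single higher one are given 5′ to 3′ on the strand of the gene, with CACGTG in capitals and up to 30 bases on each side. They show how close the matches lie to each other: Lamp1 holds 4 within 1 window, and Ctsa holds 2.
Atp6v1a (chr16:44139355-44139420, minus strand): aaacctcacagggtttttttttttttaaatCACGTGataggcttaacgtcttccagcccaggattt
Atp6v0e (chr17:26676369-26676434, plus strand): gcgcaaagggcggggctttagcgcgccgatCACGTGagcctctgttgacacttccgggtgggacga
Ctsd (chr7:142387890-142387955, minus strand): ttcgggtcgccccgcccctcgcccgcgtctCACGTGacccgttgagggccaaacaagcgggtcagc
Ctsa (chr2:164833731-164833813, plus strand): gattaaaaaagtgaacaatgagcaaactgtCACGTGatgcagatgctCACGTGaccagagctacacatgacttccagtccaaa
Ctsf (chr19:4855056-4855121, plus strand): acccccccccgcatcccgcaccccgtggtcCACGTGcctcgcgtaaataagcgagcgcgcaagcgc
Lamp1 (chr8:13159070-13159181, plus strand): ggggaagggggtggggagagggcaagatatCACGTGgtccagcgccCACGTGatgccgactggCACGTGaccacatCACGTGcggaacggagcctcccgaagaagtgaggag
Ctsl (chr13:64370721-64370770, minus strand): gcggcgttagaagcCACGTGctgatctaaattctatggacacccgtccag
Positions are counted from the RefSeq start that the promoter table uses, not from the start of the GENCODE gene whose coordinates are given with some members. The RefSeq start lies 13165 bases inside the GENCODE gene for Atp6v0e, 900 for the Ctsa entry with the matches (1 of 2 entries), 446 for Atp6v1a, 370 for Ctsl, 211 for Ctsd and 35 for Ctsf, and the 2 starts coincide for Lamp1. The first capital lies at -131 in Atp6v1a, 4 in Atp6v0e, -98 in Ctsd, -12 in Ctsa, -79 in Ctsf, -61 in Lamp1 and -236 in Ctsl. Ctsd has another match at -245. Of these genes Atp6v1a, Atp6v0e, Ctsd and Ctsa also hold TCACGTGA, and Ctsd, Ctsa and Lamp1 hold GTCACGTG on either strand. The uncalled Atp6v0d1 (match at -3) and Atp6v0b (-36 and -18) are not printed. Atp6v0d1 holds TCACGTGA, and both hold GTCACGTG on either strand.

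Among the raised cathepsins, Ctsc, Ctsz and Ctss had no CACGTG in this window, and Ctsh had no promoter entry. The promoters of Ctsc and Ctsz, the members with the smallest adjusted p-values, are given whole in the same orientation.
Ctsc (chr7:88277835-88278134, plus strand): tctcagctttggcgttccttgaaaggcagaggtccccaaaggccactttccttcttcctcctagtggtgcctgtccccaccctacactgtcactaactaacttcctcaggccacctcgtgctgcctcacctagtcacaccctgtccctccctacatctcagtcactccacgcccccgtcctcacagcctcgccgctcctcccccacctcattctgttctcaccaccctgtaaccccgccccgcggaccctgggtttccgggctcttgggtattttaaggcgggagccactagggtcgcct
Ctsz (chr2:174438990-174439289, minus strand): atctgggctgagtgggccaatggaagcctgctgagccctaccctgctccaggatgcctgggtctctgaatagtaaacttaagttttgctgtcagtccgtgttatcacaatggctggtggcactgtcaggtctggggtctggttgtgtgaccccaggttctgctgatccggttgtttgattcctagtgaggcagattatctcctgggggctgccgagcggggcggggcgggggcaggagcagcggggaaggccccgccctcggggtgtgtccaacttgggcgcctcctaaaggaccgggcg

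The V1 genes were mostly lower in the knockout. Of 11 V1 genes tested, 8 were lower and 3 were not called, and for 9 of the 11 the 3 knockout values lay wholly below the 3 wild-type values, against 27.1% of all genes tested (55.2% were without overlap in either direction). Both counts include Atp6v1b1, the 1 member that reached the minimum in wild-type libraries only, so that the minimum favoured its call. Without it 7 of 10 were lower and 8 of 10 wholly below. Of the lower V1 genes with a promoter entry, Atp6v1a held the E-box, and Atp6v1b1, Atp6v1c2, Atp6v1d, Atp6v1e1 and Atp6v1f did not. Atp6v1a encodes the catalytic A subunit that splits ATP (ENSMUSG00000052459.13, chromosome 16, 44085402 to 44139705, minus strand, mm10). It had 2326, 2346 and 2593 normalized counts in the knockout libraries, against 4263, 4016 and 3533 in the wild-type libraries. The knockout values were tightly grouped and all lay below the wild-type ones, at 61.5% of the wild-type mean (log2 difference -0.70 ± 0.13 SE, limma adjusted p = 0.00175). Atp6v1d, which encodes a subunit of the central rotor, had 1028, 986 and 1225 normalized counts in the knockout libraries, against 2154, 1861 and 1695 in the wild-type libraries (log2 difference -0.82 ± 0.15 SE, limma adjusted p = 0.00143). Atp6v1h, whose product regulates coupling of the sectors, had 1793, 1581 and 1684 normalized counts in the knockout libraries, against 2633, 3626 and 2497 in the wild-type libraries (log2 difference -0.77 ± 0.16 SE, limma adjusted p = 0.00301). In both genes the groups did not overlap, and for Atp6v1h wild-type library 2 was the highest.

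The genes of the E and C subunits fell as well. Atp6v1e1 encodes an E subunit of the peripheral stalks and had 2167, 1993 and 2455 normalized counts in the knockout libraries, against 3896, 3632 and 2897 in the wild-type libraries (log2 difference -0.65 ± 0.15 SE, limma adjusted p = 0.00583). Atp6v1c1 encodes the C subunit, which joins the stalks to V0, and had 1138, 1257 and 1325 normalized counts in the knockout libraries, against 1996, 2039 and 1792 in the wild-type libraries (log2 difference -0.65 ± 0.13 SE, limma adjusted p = 0.00275). Both genes were lower in every knockout library than in any wild-type library. Atp6v1f, a rotor subunit gene, had 1458, 1379 and 1511 normalized counts in the knockout libraries, against 1998, 2665 and 1688 in the wild-type libraries, again without overlap (log2 difference -0.52 ± 0.17 SE, limma adjusted p = 0.0299). Its call was lost without knockout library 1 (adjusted p = 0.0854), knockout library 2 (adjusted p = 0.0935), knockout library 3 (adjusted p = 0.0647) or wild-type library 2 (adjusted p = 0.0872), where the smallest log2 difference was -0.34, without wild-type library 2. Over the alternatives its adjusted p was 0.00335 to 0.14.

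The main B and G subunit genes of V1 were not called. Atp6v1b2, the widely expressed form of the B subunit, which forms the nucleotide-binding head together with A, had 1774, 1723 and 2006 normalized counts in the knockout libraries, against 1864, 1797 and 1487 in the wild-type libraries. These groups overlapped (log2 difference 0.10 ± 0.14 SE, limma adjusted p = 0.602), and the sign of the difference turned under quantile and upper quartile scaling. Atp6v1g1, the widely expressed form of the G subunit of the stalks, had 1421, 1157 and 1553 normalized counts in the knockout libraries, against 1474, 1766 and 1408 in the wild-type libraries and also overlapped (log2 difference -0.17 ± 0.16 SE, limma adjusted p = 0.405). The processed pseudogene Gm13453 matches its transcript at 99.4% identity over 357 bases and stood at 5.67, 5.91 and 1.92 in the knockout and 78.3, 233 and 102 in wild-type, so reads of the pair are uncertain. Atp6v1g2, a G form best known from neurons, had 48.2, 35.5 and 46.1 normalized counts in the knockout libraries, against 67.3, 59.3 and 95.2 in the wild-type libraries; the groups did not overlap and the gene was not called (log2 difference -0.74 ± 0.35 SE, limma adjusted p = 0.115).

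**Figure D2:**
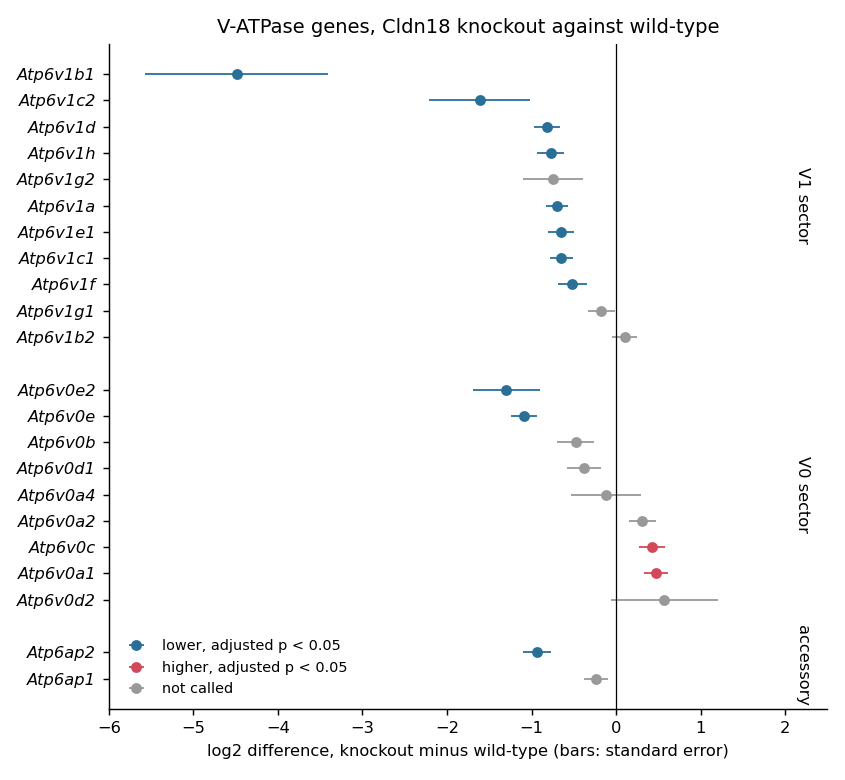
Log2 difference, knockout minus wild-type, of the 22 V-ATPase genes tested, with the standard error as bars, ordered within the V1 sector, V0 sector and accessory subunits and coloured by the limma call at adjusted p under 0.05. The 8 V1 genes called lower lie between -4.49 and -0.52, and the V0 genes spread on both sides of 0. The value of -4.49 is that of Atp6v1b1, which reached the minimum in wild-type libraries only.

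The low-level V1 isoforms varied most between wild-type libraries. Atp6v1b1 encodes the B form known from acid-secreting cells of the kidney and had 0, 8.13 and 0.961 normalized counts in the knockout libraries, against 12.2, 193 and 77.7 in the wild-type libraries. All knockout values were under the minimum of 10, and the gene was tested only because all wild-type values were above it. The wild-type values themselves differed widely (log2 difference -4.49 ± 1.08 SE, limma adjusted p = 0.00648). Against wild-type library 1 alone the log2 difference was -2.34 (adjusted p = 0.264), and in the authors' deposited table its adjusted p was 0.098. Atp6v1c2, a C form of restricted expression, had 11.3, 12.6 and 12.5 normalized counts in the knockout libraries, against 15.9, 56.8 and 65.1 in the wild-type libraries (log2 difference -1.61 ± 0.60 SE, limma adjusted p = 0.0488). Its call was lost without knockout library 1 (adjusted p = 0.113), knockout library 2 (adjusted p = 0.0955), knockout library 3 (adjusted p = 0.0969), wild-type library 2 (adjusted p = 0.137) or wild-type library 3 (adjusted p = 0.183), and against wild-type library 1 alone the log2 difference was -0.37. It was also lost under TMM scaling (adjusted p = 0.0604) and with a pseudocount of 0.5 (adjusted p = 0.051), among 13 alternatives in all. Over the alternatives its adjusted p was 0.0043 to 0.723.

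Of 9 V0 genes tested, 2 were lower, 2 higher and 5 not called, shares of 22.2% each way, near those of all genes. Atp6v0e encodes the small hydrophobic e subunit (ENSMUSG00000015575.15, chromosome 17, 26663231 to 26699647, plus strand, mm10) and had 2158, 1938 and 2327 normalized counts in the knockout libraries, against 4352, 5474 and 3967 in the wild-type libraries. The knockout kept 46.6% of the wild-type mean, with a wide gap between the groups (log2 difference -1.09 ± 0.15 SE, limma adjusted p = 0.000288). Its paralogue Atp6v0e2 had 51.0, 64.3 and 36.5 normalized counts in the knockout libraries, against 97.9, 209.9 and 90.3 in the wild-type libraries, also without overlap (log2 difference -1.30 ± 0.40 SE, limma adjusted p = 0.0209). That call was lost without knockout library 1 (adjusted p = 0.0543), knockout library 3 (adjusted p = 0.0792) or wild-type library 2 (adjusted p = 0.0757), and over the alternatives the adjusted p was 0.00518 to 0.193.

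The higher V0 genes were those of a proteolipid and of a large membrane subunit. Atp6v0c encodes the c proteolipid of the rotating ring and had 1477, 1236 and 1604 normalized counts in the knockout libraries, against 1199.6, 1077 and 942 in the wild-type libraries. Each knockout value was above each wild-type value, by a small margin (log2 difference 0.42 ± 0.16 SE, limma adjusted p = 0.048). The call was lost without knockout library 1 (adjusted p = 0.148), knockout library 3 (adjusted p = 0.178), wild-type library 2 (adjusted p = 0.0654) or wild-type library 3 (adjusted p = 0.153), and after quantile normalization (0.0998), upper quartile scaling (0.0972) or with DESeq2 (0.0578). Atp6v0a1 encodes an a subunit, the part of the stator that forms the proton path, and had 3094, 2647 and 3539 normalized counts in the knockout libraries, against 2322, 2173 and 2141 in the wild-type libraries (log2 difference 0.47 ± 0.14 SE, limma adjusted p = 0.0198). The groups did not overlap, and the call was lost without knockout library 1 (adjusted p = 0.0748), knockout library 3 (adjusted p = 0.0981) or wild-type library 3 (adjusted p = 0.0598). Over the alternatives the adjusted p was 0.0114 to 0.331 for Atp6v0c and 0.0078 to 0.138 for Atp6v0a1.

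The other V0 genes were not called. Atp6v0b encodes the c'' proteolipid and had 2694, 2032 and 2448 normalized counts in the knockout libraries, against 2796, 4769 and 2716 in the wild-type libraries. Its groups did not overlap, wild-type library 2 stood well above the rest, and the adjusted p was 0.0963, or 0.0469 without wild-type library 1. Without wild-type library 2 its log2 difference was -0.21 (adjusted p = 0.304), against -0.48 with all libraries. Atp6v0d1, the subunit that couples the ring to the rotor, had 1229.7, 1239.7 and 1711 normalized counts in the knockout libraries, against 1626, 2361 and 1494 in the wild-type libraries, with overlap (adjusted p = 0.151). Both were called lower after quantile normalization and upper quartile scaling. Atp6v0a2, an a form of endosomes and Golgi, had 1467, 1360.1 and 1780.0 normalized counts in the knockout libraries, against 1435, 1136 and 1143 in the wild-type libraries (adjusted p = 0.14, or 0.0436 without wild-type library 1). The low-level forms Atp6v0a4, known from kidney, and Atp6v0d2, known from osteoclasts, overlapped between the groups. Atp6v0a4 had 108, 64.3 and 51.9 normalized counts in the knockout, against 47.7, 116 and 82.5 in wild-type (log2 difference -0.12 ± 0.41 SE), and Atp6v0d2 had 132, 53.2 and 46.1 normalized counts in the knockout, against 33.0, 22.2 and 130.1 in wild-type (0.57 ± 0.64 SE).

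The 2 accessory subunits differed in size of change. Atp6ap2, also called the prorenin receptor, assists assembly of the pump and had 2005, 1891 and 1849 normalized counts in the knockout libraries, against 3279, 4769 and 3155 in the wild-type libraries. The knockout libraries lay close together at 51.3% of the wild-type mean, and wild-type library 2 was the highest (log2 difference -0.94 ± 0.17 SE, limma adjusted p = 0.00126). Atp6ap1, another assembly factor, had 3234, 2982 and 3466 normalized counts in the knockout libraries, against 4273, 3937 and 3249 in the wild-type libraries, with overlap (log2 difference -0.24 ± 0.15 SE, limma adjusted p = 0.215). It was called lower after quantile normalization and upper quartile scaling.

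Shares of paralogous forms within a library do not depend on the scaling between libraries. They were computed from levels per kilobase of RefSeq-matched coding transcript and compared in 8 subunit families by two-sided exact permutation tests, whose smallest p with 3 against 3 is 0.1. Of the summed Atp6v0c and Atp6v0b level, Atp6v0c made up 31.7, 34.0 and 35.6% in the knockout libraries, against 26.6, 16.0 and 22.7% in the wild-type libraries, without overlap (exact permutation p = 0.1, adjusted over the 8 families 0.4). These genes encode different proteolipids, c and c'', so this share compares subunits and not alternative forms of the same subunit. The difference was 12.0 percentage points, or 9.11 without wild-type library 2. The share of Atp6v1b1 among B forms was 0, 0.662 and 0.0677% in the knockout libraries, against 0.919, 13.2 and 6.88% in the wild-type libraries (exact permutation p = 0.1, adjusted 0.4). Atp6v1b2 held the rest of the B level, with a share 6.74 percentage points higher in the knockout, or 3.65 without wild-type library 2 and 0.676 against wild-type library 1 alone. In the other 6 families the groups overlapped for the form tested in each. The main forms there were Atp6v1c1, Atp6v1e1, Atp6v1g1, Atp6v0d1 and Atp6v0e, whose lowest share in any library was 93.5%, for Atp6v0d1 in knockout library 1. Among a forms Atp6v0a1 held 59.8% ± 2.25 in the knockout and 58.0% ± 2.44 in wild-type (SD, n = 3), and Tcirg1, the a form of osteoclasts, 17.2% ± 2.52 and 16.4% ± 2.69 in these groups. Atp6v0a2 held 20.5, 21.0 and 22.1% in the knockout libraries, against 24.4, 22.5 and 22.2% in the wild-type libraries. Its groups lay apart by a small margin, and no exact test was run on its share.

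**Figure D3:**
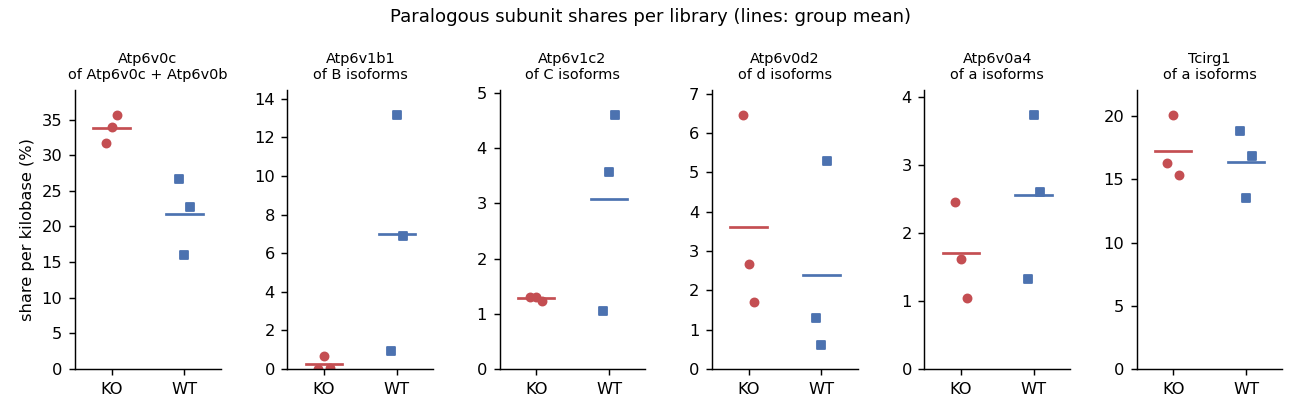
Share (%) of 6 V-ATPase forms in the summed level per kilobase of their family, with 1 point per library (red circles knockout, blue squares wild-type) and lines at the group means; each panel has its own axis from 0. The groups are apart for Atp6v0c and Atp6v1b1, and the wild-type points of Atp6v1b1 and Atp6v1c2 spread from the low value of library 1.

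Cathepsins split into a raised and a lowered set. Of 13 tested, 5 were higher, 3 lower and 5 not called, shares of 38.5% higher and 23.1% lower beside 23.3% and 21.5% of all genes. All 5 raised genes encode cysteine proteases, the class of 10 of the 13 tested, of which 1 was lower and 4 were not called. Ctsc, the gene of dipeptidyl peptidase I, which activates serine proteases of immune cell granules (ENSMUSG00000030560.17, chromosome 7, 88278085 to 88310888, plus strand, mm10), had 3227, 2932 and 3491 normalized counts in the knockout libraries, against 1109, 808 and 787 in the wild-type libraries (log2 difference 1.85 ± 0.16 SE, limma adjusted p = 1.33e-05). Ctsh, the gene of an aminopeptidase, had 4668, 4371 and 5310.3 normalized counts in the knockout libraries, against 2031, 1387 and 1343 in the wild-type libraries (log2 difference 1.61 ± 0.18 SE, limma adjusted p = 5.2e-05). Ctsz, the gene of a carboxypeptidase, had 3215, 2889 and 3432 normalized counts in the knockout libraries, against 1229, 959 and 986 in the wild-type libraries (log2 difference 1.59 ± 0.15 SE, limma adjusted p = 1.79e-05). In each of these exopeptidase genes the lowest knockout value was more than 2 times the highest wild-type value, and replicates within a group lay close together.

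Ctss and Ctsl rose as well. Ctss encodes an endopeptidase of antigen-presenting cells that trims the invariant chain of class II molecules, and had 629, 635 and 1028 normalized counts in the knockout libraries, against 286, 219.8 and 209.7 in the wild-type libraries. Knockout library 3 was the highest and there was no overlap (log2 difference 1.65 ± 0.23 SE, limma adjusted p = 0.000265). Ctsl encodes a broadly expressed endopeptidase and had 2193, 2317 and 2577 normalized counts in the knockout libraries, against 1679, 1334 and 1209 in the wild-type libraries (log2 difference 0.76 ± 0.15 SE, limma adjusted p = 0.00263), a smaller change with a clear gap between the groups. Ctsk, known for collagen breakdown in osteoclasts and fibroblasts, had 164, 169.9 and 349.9 normalized counts in the knockout libraries, against 126, 109 and 151 in the wild-type libraries. All knockout values were above all wild-type values, library 3 stood apart, and the gene was not called (log2 difference 0.74 ± 0.32 SE, limma adjusted p = 0.0818). Quantile normalization called it higher (adjusted p = 0.0294). Of 7 fibroblast markers 3 were higher and 4 not called, with sums of 27600.1 to 48866 normalized counts in the knockout, against 23255 to 38848 in wild-type, and here too knockout library 3 was the highest. Of 3 osteoclast markers tested 1 (Acp5) was higher, and the 5 listed summed to 1627 to 1796 normalized counts in the knockout, against 656 to 990.3 in wild-type. Nearly all of this sum was Acp5, which is also among the lysosomal hydrolases below. Acp5 had 1774, 1590 and 1756 normalized counts in the knockout libraries, against 955, 631 and 712 in the wild-type libraries. The part of fibroblasts and osteoclasts in the Ctsk values was not tested.

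Markers of myeloid cells moved with these genes. Of 15 macrophage and myeloid markers tested, 10 were higher, 1 (Cd163) lower and 4 not called, and none of the 15 was at 0 in all libraries. Cd14, a lipopolysaccharide co-receptor, had 486, 549.6 and 612 normalized counts in the knockout libraries, against 88.1, 85.2 and 73.8 in the wild-type libraries (log2 difference 2.72 ± 0.21 SE, limma adjusted p = 5.42e-06), and Lyz2, lysozyme of macrophages, had 2034, 1601 and 3415 normalized counts in the knockout libraries, against 808, 682 and 478 in the wild-type libraries. As for Ctss, knockout library 3 was the highest for both. The general macrophage genes Csf1r (log2 difference 0.53 ± 0.29 SE, limma adjusted p = 0.165) and Cd68 (log2 difference 0.57 ± 0.35 SE, limma adjusted p = 0.213) were not called. Of 7 dendritic cell markers 2 were higher, 1 lower and 4 not called, with sums of 348 to 412 normalized counts in the knockout, against 278 to 412 in wild-type. The part of such cells in the cathepsin changes was not tested.

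**Figure D4:**
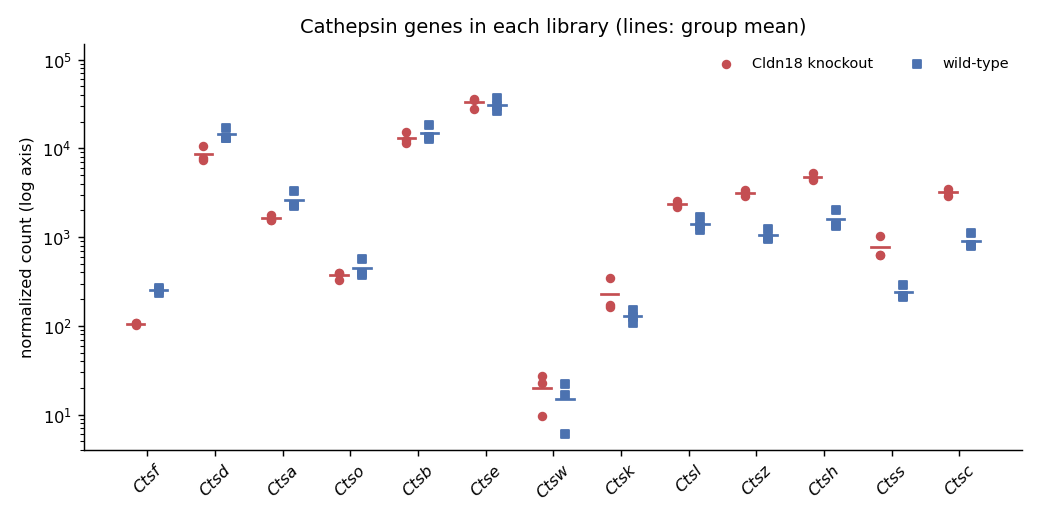
Normalized count on a log axis of the 13 cathepsin genes tested in each library (red circles knockout, blue squares wild-type, lines at group means), ordered by log2 difference from Ctsf (-1.24) to Ctsc (1.85). Ctsl, Ctsz, Ctsh, Ctss and Ctsc lie above their wild-type points, Ctsf, Ctsd and Ctsa below, and the Ctse points of both groups lie between 26235 and 37399.

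The lowered cathepsins belong to 3 protease classes. All of them hold the E-box CACGTG in the sequences above, as does the raised Ctsl. Ctsd encodes the main aspartic protease of lysosomes (ENSMUSG00000007891.16, chromosome 7, 142375911 to 142388038, minus strand, mm10) and had 7843, 7334 and 10537 normalized counts in the knockout libraries, against 17098, 13050.1 and 12985 in the wild-type libraries. The knockout mean was 59.6% of the wild-type mean without overlap (log2 difference -0.75 ± 0.19 SE, limma adjusted p = 0.00775). Ctsa encodes a serine carboxypeptidase that also protects β-galactosidase and neuraminidase, and had 1555, 1576 and 1797 normalized counts in the knockout libraries, against 2294, 3285 and 2256 in the wild-type libraries (log2 difference -0.65 ± 0.17 SE, limma adjusted p = 0.00934). Wild-type library 2 was its highest. Ctsf, a cysteine protease gene, had 101, 108 and 109 normalized counts in the knockout libraries, against 252, 269 and 233 in the wild-type libraries, which gave the most negative value of the cathepsins (log2 difference -1.24 ± 0.22 SE, limma adjusted p = 0.00111). Part of the Ctsa exons (10.5%) overlaps exons of Pltp on the opposite strand, and whether the counts used strand is not known from the labels. Of the Ctsd exon length 34.4% overlaps Gm49369 on the same strand. Of the raised Ctsl, 26.8% overlaps Gm47123 on the opposite strand and 6.09% Gm49230 on the same strand. No counts were found for these partners of Ctsd and Ctsl.

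Some of the most abundant cathepsins did not differ between the groups beyond their spread. Ctse, the aspartic protease of gastric epithelium, had 35918, 27699.7 and 35175 normalized counts in the knockout libraries, against 37399, 26235 and 29923 in the wild-type libraries, the highest level of the members. The groups overlapped (log2 difference 0.08 ± 0.21 SE, limma adjusted p = 0.778), and the sign turned under upper quartile scaling. Ctsb, a lysosomal cysteine protease, had 12429.7, 11631 and 15131 normalized counts in the knockout libraries, against 18137, 13589.8 and 12663 in the wild-type libraries (log2 difference -0.17 ± 0.19 SE, limma adjusted p = 0.492), and 12.8% of its exon length overlaps exons of Fdft1 on the other strand. Ctso had 328, 392 and 397 normalized counts in the knockout libraries, against 573, 391 and 373 in the wild-type libraries (log2 difference -0.24 ± 0.21 SE, limma adjusted p = 0.383). Ctsw, a gene of cytotoxic lymphocytes, had 27.4, 22.9 and 9.61 normalized counts in the knockout, against 6.12, 22.2 and 16.5 in wild-type (log2 difference 0.44 ± 0.66 SE, limma adjusted p = 0.624). Of 10 cytotoxic T and NK cell markers, 2 passed the minimum and neither was called, with sums of 51.9 to 108 normalized counts in the knockout, against 26.9 to 82.5 in wild-type.

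Within the summed cathepsin level per kilobase, cysteine forms together held a larger share in the knockout and Ctsd a smaller one. With lengths of all annotated exons in place of transcript lengths these shares kept their direction, at 33.3% and 20.7% for all cysteine forms and 16.8% and 29.4% for Ctsd in the knockout and in wild-type. The sum was 31194 ± 3795 normalized counts per kilobase in the knockout and 28677 ± 4764 in wild-type (SD, n = 3), so the totals overlapped. Ctse held 49.6% ± 3.01 in the knockout and 51.1% ± 2.30 in wild-type (SD, n = 3). Ctsd held 11.6, 12.7 and 14.3% in the knockout libraries, against 23.5, 24.2 and 23.0% in the wild-type libraries. Ctsc, Ctsh and Ctsz together held 19.6, 21.1 and 19.9% in the knockout libraries, against 7.31, 7.11 and 6.76% in the wild-type libraries. All these shares are given without a test. The Ctsd share and the joint share of Ctsc, Ctsh and Ctsz were separate between the groups and narrow within them, and the Ctse shares overlapped. All cysteine cathepsins together made up 35.8% ± 1.87 in the knockout and 22.3% ± 1.07 in wild-type (SD, n = 3). Among them Ctsb went the other way, at 8.24, 9.04 and 9.21% in the knockout libraries, against 11.2, 11.3 and 10.1% in the wild-type libraries. The Ctsf share was lower too, averaging 0.173% in the knockout and 0.451% in wild-type.

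**Figure D5:**
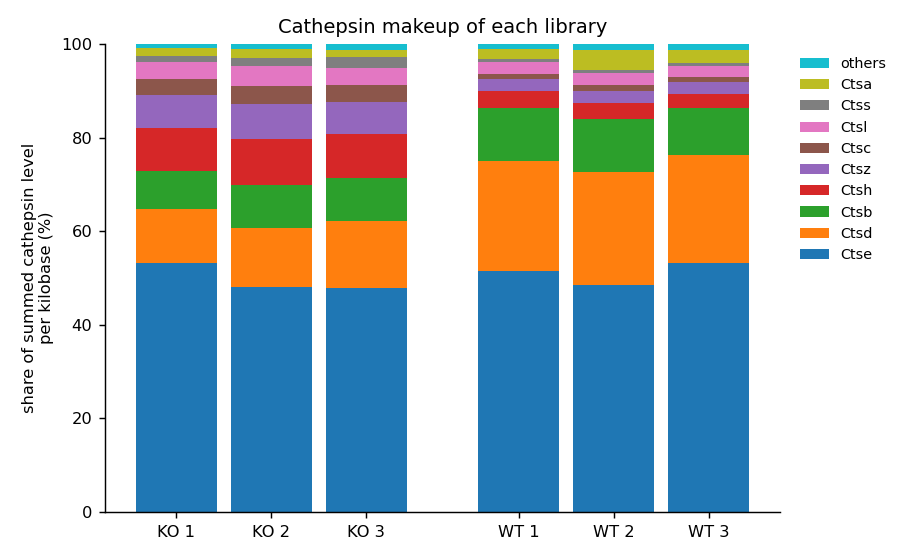
Stacked shares (%) of each cathepsin in the summed cathepsin level per kilobase of each library, with the 3 knockout (KO) libraries on the left and the 3 wild-type (WT) libraries on the right. The Ctse band averages 49.6% in the knockout and 51.1% in wild-type, the Ctsd band averages 12.9% in the knockout and 23.6% in wild-type, and the Ctsh, Ctsz and Ctsc bands are wider in the knockout.

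Lamp1 and Lamp2, whose products make up much of the lysosomal membrane protein, were modestly lower. Lamp1, the member with the most CACGTG matches printed above, had 8482, 8664 and 9925 normalized counts in the knockout libraries, against 14013, 12326 and 11422 in the wild-type libraries (log2 difference -0.48 ± 0.15 SE, limma adjusted p = 0.0259). Lamp2, whose product also serves chaperone-mediated autophagy, had 3905, 4173 and 4623 normalized counts in the knockout libraries, against 5436, 6015 and 5179 in the wild-type libraries (log2 difference -0.39 ± 0.14 SE, limma adjusted p = 0.0382). In both genes the knockout values lay below the wild-type ones, at 71.7% and 76.4% of the wild-type mean. The Lamp1 call was lost without knockout library 1 (adjusted p = 0.125), knockout library 2 (adjusted p = 0.0894) or wild-type library 1 (adjusted p = 0.0504). The Lamp2 call was lost without knockout library 1 (adjusted p = 0.172), knockout library 2 (adjusted p = 0.103), knockout library 3 (adjusted p = 0.054) or wild-type library 2 (adjusted p = 0.0939). Over the alternatives the adjusted p was 0.000776 to 0.125 for Lamp1 and 0.00216 to 0.275 for Lamp2. On the opposite strand, exons of Grtp1 overlap 9.31% of the Lamp1 exon length. Lamp3, known from mature dendritic cells, had 0, 13.3 and 10.6 normalized counts in the knockout, against 9.79, 29.6 and 15.5 in wild-type, and was not called (log2 difference -1.68 ± 1.03 SE, limma adjusted p = 0.211).

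The remaining 9 members were below the minimum. They were Atp6ap1l, Atp6v1e2, Atp6v1g3, Lamp5, Ctsg (a serine protease gene of neutrophils and mast cells) and the placental cathepsin genes Ctsj, Ctsm, Ctsq and Ctsr. Of 6 mast cell and neutrophil markers tested 4 were higher, 1 lower and 1 not called, Ly6g was at 0 in all libraries, and the 12 listed summed to 1348 to 2269 normalized counts in the knockout, against 1658 to 2422 in wild-type. Most of the wild-type sum was Kit, which was lower (315, 285 and 210.5 normalized counts in the knockout, against 2153, 1532 and 1540.0 in wild-type), and the protease genes Mcpt1, Mcpt2, Mcpt4 and Cpa3 were higher, with Mcpt1 at 732, 418 and 919.8 normalized counts in the knockout, against 51.4, 17.3 and 358 in wild-type. The values of the 9 members ran between 0 and 21.4 normalized counts, with 11 to 47 reads per gene over the 6 libraries, and no comparison was made.

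Other genes of the lysosome were taken from 6 lists that do not follow the symbol rule, and their counts stand beside 21.5% lower and 23.3% higher of all genes tested. Of 41 lysosomal hydrolase and activator genes, 14 (34.1%) were lower, 6 (14.6%) higher and 21 not called, with a median log2 difference of -0.30. The largest decreases were those of Galc, which degrades galactosylceramide, with 150.2, 295 and 173 normalized counts in the knockout, against 1100.4, 846 and 933 in wild-type (log2 difference -2.27 ± 0.25 SE, limma adjusted p = 5.4e-05), the GM2 activator gene Gm2a (-1.83) and the palmitoyl thioesterase gene Ppt1 (-1.19). The largest increases were those of the β-glucuronidase gene Gusb, with 2013, 2107 and 2252 normalized counts in the knockout, against 1000.1, 767 and 859 in wild-type (log2 difference 1.28 ± 0.14 SE, limma adjusted p = 6.41e-05), Galns (1.27) and Acp5 (1.18). Of 24 lysosomal membrane protein genes, 9 (37.5%) were lower, 3 (12.5%) higher and 12 not called, with a median of -0.31. Cln3 (-0.83), Laptm4a (-0.82) and Slc38a9 (-0.75) had the most negative log2 differences among the calls, and Laptm5, a gene of blood cells, the highest (1.29).

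Genes that sort enzymes to the lysosome and genes that sense its state were measured too. Of 17 genes of mannose 6-phosphate sorting, 5 (29.4%) were lower, 4 (23.5%) higher and 8 not called, with a median of -0.01, near the figures of all genes. The clathrin adaptor gene Gga2 had 612, 560.0 and 529.6 normalized counts in the knockout libraries, against 9726, 8960.2 and 7457 in the wild-type libraries (log2 difference -3.93 ± 0.14 SE, limma adjusted p = 5.27e-08), the widest gap of the list. Nagpa, the uncovering enzyme of the mannose 6-phosphate tag, was higher (log2 difference 1.28 ± 0.19 SE, limma adjusted p = 0.000404), as were the receptor genes M6pr (0.69) and Igf2r (0.52). Of 19 genes of the TFEB family and of mTORC1 control at the lysosome, 10 (52.6%) were lower, 3 (15.8%) higher and 6 not called, with a median of -0.44. Mitf, a TFEB family member, had 75.6, 118 and 70.2 normalized counts in the knockout libraries, against 1021, 706 and 786 in the wild-type libraries (log2 difference -3.26 ± 0.25 SE, limma adjusted p = 5.41e-06). Tfeb itself was modestly lower (log2 difference -0.45 ± 0.16 SE, limma adjusted p = 0.0393), Tfe3 was not called (log2 difference 0.09 ± 0.18 SE, limma adjusted p = 0.693), and Rragd, a Rag GTPase gene, was higher with 1155, 1929 and 1229 normalized counts in the knockout, against 139.5, 284 and 239 in wild-type (log2 difference 2.72 ± 0.28 SE, limma adjusted p = 3.54e-05).

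Partners of the V-ATPase outside the rule gave 4 lower (33.3%), 2 higher (16.7%) and 6 uncalled genes of 12 tested. Dmxl2 (-1.12), Wdr7 (-1.08) and Rogdi (-1.16), whose products are parts of the complex that reassembles V1 on V0, were lower, with no overlap between the groups. The related Dmxl1 was not called (log2 difference -0.07 ± 0.14 SE, limma adjusted p = 0.705). It had 1811, 1807 and 1641 normalized counts in the knockout libraries, against 1896, 1629 and 2014 in the wild-type libraries. Dmxl2 stood far below it, at 199, 158 and 168 in the knockout and 366, 391 and 385 in wild-type. Ccdc115, an assembly factor gene, was higher (0.74), and Tcirg1 was not called (log2 difference 0.50 ± 0.19 SE, limma adjusted p = 0.0569). Of 3 cystatin genes tested, Cst6 was higher (1.53, from low values), and Cst3 and Cstb, the main inhibitors of cysteine cathepsins, were not called (-0.09 ± 0.16 and -0.16 ± 0.14 SE). Parietal cell markers fell in 13 of 16 cases and chief cell markers in all 7 tested, and Atp4a had 1175, 5217 and 2094 normalized counts in the knockout libraries, against 307686, 283956 and 239137 in the wild-type libraries. Beside this, the 8 V1 genes called lower had log2 differences of -4.49 to -0.52, and the 3 not called -0.74 to 0.10. The value of -4.49 is that of Atp6v1b1, which reached the minimum in wild-type libraries only. Atp6v1c2 followed at -1.61, with a call lost in 13 alternatives. The rest of the V1 genes called lower had values between -0.82 and -0.52. The part of these cell types in the V-ATPase changes was not tested.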

How the data were processed

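RNA of microdissected corpus was sequenced in 3 Cldn18 knockout and 3 wild-type libraries. The authors deposited normalized counts per gene, a signal scaled by 1 size factor per library. The authors also deposited a table of the comparison with mean normalized counts, a fold change (a ratio, knockout over wild-type) and p-values. The submitters' processing notes name STAR, featureCounts, DESeq and mm10, without versions. No source used here gives the strandedness or the annotation. Dividing by the step between low values gave whole reads for 100% of values within 0.05 reads. The gene Gm26924 took 38.6 to 45.4% of reads on genes. Of 38720 rows, 27 had a date as symbol.

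Groups came from the labels. Differences, knockout minus wild-type, were tested with limma 3.58.1 (R 4.3.3, mean trend, two-sided) on log2(normalized count + 1), with Benjamini-Hochberg adjustment over the 17432 genes that reached 10 in 3 or more libraries. Alternatives were other scalings, pseudocounts, filters, variance models and thresholds, edgeR 4.0.16 and DESeq2 1.42.0 on the recovered whole reads, the authors' table, a replicate block, and libraries left out. The fit script was first tested on simulated data. Lengths for levels per kilobase were medians over RefSeq-matched coding transcripts of GENCODE (mm10). The members and lists were chosen with earlier results of these data known. From each list the text names at most the 3 called genes with the largest absolute log2 difference in each direction, and Tcirg1 for its family. Tfeb, Tfe3, Csf1r, Cd68, Cst3, Cstb, Gm13453, Dmxl1, Atp4a, Atp4b, Car2, Ezr, Lyz2, Ly6g and Cpa3 are named outside this rule, with their values known.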

Additional observations from a re-analysis of the deposited data

How the results depend on the processing

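Of the 23 called members, 15 kept their call in all 20 alternatives other than stricter thresholds. Leaving out 1 library at a time gave 11 to 16 members lower and 5 to 8 higher, 8 to 12 V-ATPase genes lower, 6 to 8 V1 genes lower, and 2969 to 3899 genes lower and 3138 to 4379 higher over the whole table. Where a wild-type library stood alone, it was assumed to vary like the other libraries. edgeR called 8047 genes and DESeq2 7907, against 7796 by limma, with 7 and 6 members higher and 16 and 17 lower.

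In the authors' deposited comparison, 10 members, 7 V-ATPase genes, 5 V1 genes and 2024 genes of the whole table were called lower. Against wild-type library 1 alone 12 members and 2488 genes of the whole table were lower. With a log2 difference of at least 1, 4 members were higher and 5 lower, 4 V-ATPase genes and 2 V1 genes were lower, and 1957 genes of the whole table were higher. The median of all genes stood at 0.10 after quantile normalization and at -0.15 after upper quartile scaling.

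Among members that were not called, log2 differences turned sign for Atp6v0a4 (0.40 after quantile normalization, 0.57 against wild-type library 1 alone, and -0.46 to 0.18 with 1 library left out, above 0 without knockout library 3 or wild-type library 2), Atp6v1b2 (-0.0289 after quantile normalization, -0.0378 after upper quartile scaling, -0.0267 against wild-type library 1 alone, and -7.28e-05 to 0.163 with 1 library left out, lowest without wild-type library 3), Ctse (-0.0533 after upper quartile scaling, -0.19 against wild-type library 1 alone, and -0.0324 to 0.22 with 1 library left out, below 0 without wild-type library 2) and Ctsw (-0.0625 to 0.87 with 1 library left out, below 0 without wild-type library 1). Differences in share turned, in percentage points, for Atp6v0d1 (-2.67 to 0.203 with 1 library left out, above 0 without knockout library 1), Atp6v0e (-0.0775 against wild-type library 1 alone, and -0.0713 to 0.387 with 1 library left out, below 0 without knockout library 3 or wild-type library 2) and Atp6v1c1 (-0.237 against wild-type library 1 alone). Using the union of all exons as length, a choice made after seeing the data, gave 10.1 points for Atp6v0c. The cause of these changes was not tested.

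Deviations of same-numbered libraries of the groups had correlations of -0.00366, 0.0214 and -0.173, so no pairing by number was seen. Such correlations cannot exclude a shared animal, litter or day, and the labels do not say whether a number marks one. With the replicate number as a block 6 members were higher and 13 lower, with 7 V1 and 10 V-ATPase genes lower. The block lost the calls of Atp6v0c, Atp6v1c2, Lamp1 and Lamp2, and a loss under it is no sign of a weaker effect. With 50 in place of 10 as the minimum, 34 members were tested, and none of them gained or lost a call. Of these, 14 members were lower, with 6 V1 genes among them, beside 3018 lower genes of the whole table. Atp6v1b1 and Atp6v1c2 were no longer tested. Members under about 10 normalized counts rest on few reads.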
